A study of Mus musculus with 12 samples.

Results

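The 10 genes described here are neutrophil genes and alarmins, taken by symbol from the 30263 genes counted in each colon library. They are S100a8, S100a9, Lcn2, Trem1, Trem3, Csf3r, Hdc, Clec4d, Clec4e and Retnlg. RNA was sequenced from total colons of C57BL/6 mice labelled WT or labelled S1PR4 KO, that is, lacking a receptor for the lipid sphingosine 1-phosphate found mainly on immune cells, with 3 libraries per genotype. All 6 colons had gone through the AOM/DSS model of colitis-associated tumors and were taken at day 84. Azoxymethane (AOM), a carcinogen, was given at 10 mg/kg by intraperitoneal injection at day 0, and dextran sulfate sodium (DSS), a polymer toxic to the gut epithelium, was in the drinking water at 0.5% from day 1 to 6, from day 21 to 27 and from day 47 to 52. No colon without AOM/DSS was analysed here, and the labels give neither the sex of the mice, their age, nor the kind of S1PR4 deletion. The labels leave it unsaid whether the replicates are different mice, and p-values cover only the spread between these samples. The series also holds 6 libraries of CD8+ T cells sorted from PyMT tumors, whose tables list 357 genes and 0 of the 10 described here.

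Neutrophils are short-lived phagocytes made in the bone marrow under the control of the cytokine G-CSF. In the inflamed colon they are called in by chemokines and by interleukin 1, cross the epithelium and release granule proteins, oxidants and web-like DNA. Alarmins are proteins that cells release when they are stressed or dying and that wake innate receptors on other cells; S100a8 and S100a9, which together form calprotectin, are the best known of these in the gut and serve as a stool marker of intestinal inflammation. In total tissue, fewer cells of a type and less RNA per cell cannot be told apart.

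The libraries held 7304082 to 8652561 counts. S1pr4 itself had 61, 47 and 25 counts in the libraries labelled WT (WT1 to WT3) and 154, 162 and 118 in those labelled KO (KO1 to KO3), so it was higher where the label says it is lacking, and every direction below rests on the labels as given. Xist, the RNA made by the inactive X chromosome of female cells, was at 515 to 591 CPM (counts scaled to a common library size) in WT1, KO2 and KO3 and at 0.894 to 6.75 CPM in WT2, WT3 and KO1. The Y-linked gene Ddx3y was at 63.3 to 81.1 CPM in WT2, WT3 and KO1 and at 0 to 0.118 CPM in the others. The first set is called Xist-high and the second Y-linked here. Genotype labels are spread unevenly over these sets, 1 WT and 2 KO against 2 WT and 1 KO. All 12 markers of colon epithelium were detected, with a summed level of 2113 to 2531 CPM. WT1 stood apart by keratins and other genes of stratified epithelium, which summed to 996 CPM there and to 30.8 to 116 CPM elsewhere. CPM values are scaled by TMM, a library factor that assumes most genes are equal.

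All 10 genes had a higher mean in the libraries labelled KO, and none passed the test. For each of the 10, KO2 and KO3 were the 2 highest libraries, while KO1 lay below WT1. The summed level of the 10 was 70.0, 32.6 and 20.5 CPM in WT1, WT2 and WT3 and 24.1, 176 and 186 CPM in KO1, KO2 and KO3. A filter on low counts, which asks for about 1.30 CPM in at least 3 libraries, left 7 of the 10 for the test; Trem3, Clec4e and Retnlg did not reach it. Among the 7, edgeR's quasi-likelihood test with Benjamini-Hochberg adjustment over 17195 genes called 0 at an adjusted p of 0.05, as it called 0 of all genes (0%). At an unadjusted p under 0.05, edgeR took 1 of the 7, Clec4d, where 2.62% of all tested genes passed with a higher level in KO. DESeq2 called 18 of 16839 genes (0.107%), 0 of them among the 7, with a lowest adjusted p of 0.705; 4 of the 7 were at an unadjusted p under 0.05, against 3.09% of all genes with a higher level in KO. Limma-voom with quality weights called 0 genes (0%), with a lowest adjusted p of 0.0951; 7 of the 7 were at an unadjusted p under 0.05, as were 26.3% of all genes in this fit, 11.9% with a higher level in KO.

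**Figure D1:**
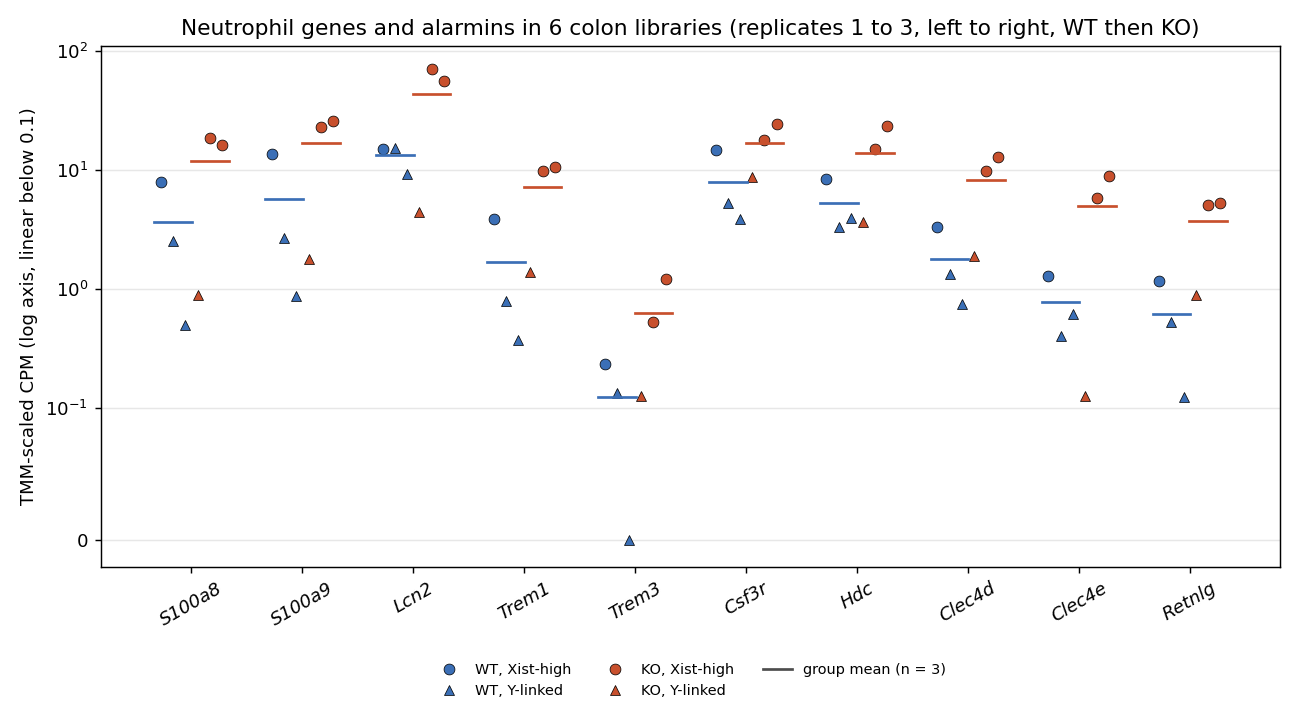
Levels of the 10 genes in each colon library in TMM-scaled CPM, on a log axis that is linear below 0.1; blue points are labelled WT, red points labelled KO, circles Xist-high, triangles Y-linked, and lines the group means (n = 3). For every gene the red circles (KO2 and KO3) are the 2 highest points, and the red triangle (KO1) lies below the blue circle (WT1).

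S100a8 and S100a9 encode small calcium-binding proteins that pair up, make up much of the cytosol of neutrophils, bind zinc and manganese away from bacteria, and act as alarmins through TLR4 and RAGE once outside the cell. They lie on chromosome 3 (GRCm38) at 90668978 to 90670035 on the plus strand and at 90692632 to 90695721 on the minus strand, 22.6 kb apart with 0 coding genes between them. S100a8 was at 7.93, 2.54 and 0.500 CPM in WT1, WT2 and WT3 and at 0.894, 18.8 and 16.5 CPM in KO1, KO2 and KO3. Its lowest library held 4 counts and its highest 142, and the groups overlapped because KO1 lay between WT2 and WT3. Means were 3.66 ± 3.84 CPM in WT and 12.1 ± 9.73 CPM in KO (SD, n = 3 each), a fitted log2 difference of 1.71 ± 1.20 (SE; edgeR adjusted p = 0.835).

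S100a9 was at 13.6, 2.67 and 0.875 CPM in WT1, WT2 and WT3 and at 1.79, 23.0 and 26.0 CPM in KO1, KO2 and KO3. Again KO1 fell between WT2 and WT3, and WT1 stood closer to KO2 than to the other libraries labelled WT. The means were 5.72 ± 6.89 CPM in WT and 16.9 ± 13.2 CPM in KO (SD, n = 3 each), with a log2 difference of 1.56 ± 1.20 (SE; edgeR adjusted p = 0.846). The 2 subunits ran closely together, with a Pearson r of 0.992 over the 6 libraries, the highest of the 45 pairs among the 10 genes. Per kilobase of exon, S100a9 was 1.40 to 2.66 times the level of S100a8 in every library.

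The stretches before the start of both genes are shown because these members had the most similar values over the libraries and because C/EBP factors, which drive granulocyte maturation, are known to act on many such genes. Each sequence is RefSeq's (GRCm38.p6), read 5′ to 3′ on the gene's strand, with matches to TTNNGNAA, the spaced half-sites of C/EBP, in capitals (either strand). S100a9 is given for the 250 bases before its start, chr3:90695722-90695971 on the minus strand, and S100a8 for chr3:90668821-90668977 on the plus strand, which leaves out 93 bases that GENCODE places inside the gene.
S100a8: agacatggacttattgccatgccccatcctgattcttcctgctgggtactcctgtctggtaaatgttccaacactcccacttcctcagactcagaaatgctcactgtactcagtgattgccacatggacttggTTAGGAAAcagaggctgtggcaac
S100a9: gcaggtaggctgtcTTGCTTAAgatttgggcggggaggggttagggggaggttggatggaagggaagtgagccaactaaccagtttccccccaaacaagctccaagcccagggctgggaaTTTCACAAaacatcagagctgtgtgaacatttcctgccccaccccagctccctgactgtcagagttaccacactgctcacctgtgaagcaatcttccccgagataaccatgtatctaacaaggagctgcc
S100a8 held 1 match and S100a9 held 2.

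Over the 250 bases before the start, 9 of the 10 genes had a RefSeq window, Trem3 being the other, and 7 of the 9 held TTNNGNAA, which 36.8% of 32851 mouse promoter windows of that length also held. GAGGAA, the core bound by PU.1, was in 6 of the 9 against 23.3% of all windows. The STAT motif TTCNNNGAA was in 1 (Trem1) against 7.02%, the NF-kB motif in 1 (Csf3r) against 7.25%, and the AP-1 motif TGANTCA in 0 against 6.75%, all on either strand. TATAAA on the gene's strand was in 2, S100a8 and Clec4e, against 7.59%. These are matches of letters and no measure of binding. GENCODE places the windows of Lcn2 and Hdc wholly, and those of S100a8 and Csf3r partly, inside the gene. Some matches, such as those of Lcn2, therefore lie within the annotated gene.

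Lcn2 encodes lipocalin 2, which binds bacterial siderophores and so withholds iron; it sits in neutrophil granules and is also made by inflamed gut epithelium. The gene lies on the minus strand of chromosome 2 at 32384633 to 32388252. It was at 15.1, 15.5 and 9.38 CPM in WT1, WT2 and WT3 and at 4.47, 70.5 and 56.5 CPM in KO1, KO2 and KO3. WT1 and WT2 were alike, so that WT1 was not the third highest library as it was for the other 9 genes, and KO1 was the lowest of all libraries, as it was for Clec4e. The WT libraries had a coefficient of variation of 25.8% and the KO libraries one of 79.4%, and the means were 13.3 ± 3.44 and 43.8 ± 34.8 CPM (SD, n = 3 each). The log2 difference was 1.71 ± 0.87 (SE; edgeR adjusted p = 0.829).

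Csf3r encodes the receptor for G-CSF, the cytokine that drives neutrophil production and release. It lies on chromosome 4 at 126024550 to 126044440, plus strand, and was at 14.9, 5.35 and 3.88 CPM in WT1, WT2 and WT3 and at 8.81, 17.9 and 24.6 CPM in KO1, KO2 and KO3. All 3 libraries labelled KO were above WT2 and WT3, but WT1 was above KO1. Csf3r had the smallest difference of the tested members, 1.08 ± 0.61 on the log2 scale (SE; edgeR adjusted p = 0.829), with means of 8.04 ± 5.99 CPM in WT and 17.1 ± 7.95 CPM in KO (SD, n = 3 each). A stretch of 1518 bases of its transcript matches the gene model AC105061.2 at 96.8% identity, so reads of the pair may not be separable.

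Trem1 and Trem3 encode receptors of myeloid cells that signal through the adaptor DAP12 (Tyrobp) and, for Trem1, amplify Toll-like receptor responses. They are neighbours on the plus strand of chromosome 17, at 48232768 to 48246924 and at 48247777 to 48258841. Trem1 was at 3.90, 0.803 and 0.375 CPM in WT1, WT2 and WT3 and at 1.40, 9.92 and 10.6 CPM in KO1, KO2 and KO3. WT1 was above KO1, and KO1 was above the other libraries labelled WT. The means were 1.69 ± 1.93 CPM in WT and 7.31 ± 5.13 CPM in KO (SD, n = 3 each), with a log2 difference of 2.08 ± 1.02 (SE; edgeR adjusted p = 0.829). Trem3 had only 2, 1 and 0 counts in WT1, WT2 and WT3 and 1, 4 and 9 in KO1, KO2 and KO3, too few for a test. The gene model 9830107B12Rik, near this pair, matches Trem1 at 80.7% over 788 bases and had 0 to 4 counts. The order of libraries of Trem3 was that of most members, with KO3 highest and WT3 lowest.

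Clec4d (MCL) and Clec4e (Mincle) encode C-type lectin receptors of neutrophils and macrophages that recognise microbial glycolipids, Mincle also a protein released by dying cells, and that signal through the Fc receptor gamma chain, Syk and Card9. Both lie on chromosome 6, Clec4d at 123262111 to 123275265 on the plus strand and Clec4e at 123281789 to 123289870 on the minus strand, 6.52 kb apart. Clec4d was at 3.31, 1.34 and 0.750 CPM in WT1, WT2 and WT3 and at 1.91, 9.79 and 13.1 CPM in KO1, KO2 and KO3. KO1 lay inside the WT range, below WT1 and above the other 2. Clec4d had the largest difference of the 7 tested members and the smallest p, with means of 1.80 ± 1.34 CPM in WT and 8.26 ± 5.73 CPM in KO (SD, n = 3 each) and a log2 difference of 2.18 ± 0.83 (SE; edgeR adjusted p = 0.829).

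Clec4e was at 1.30, 0.401 and 0.625 CPM in WT1, WT2 and WT3 and at 0.128, 5.82 and 8.99 CPM in KO1, KO2 and KO3. KO1 held 1 count, the lowest, and KO3 held 66, the highest. Fitted without the filter on low counts, its log2 difference was 2.65 ± 1.17 (SE; edgeR adjusted p = 0.784). The 2 lectin genes had a Pearson r of 0.874 over the 6 libraries. The windows before their starts are shown because the genes are neighbours that point toward each other, with C/EBP matches in capitals, at chr6:123261857-123262106 on the plus strand for Clec4d and chr6:123289872-123290121 on the minus strand for Clec4e.
Clec4d: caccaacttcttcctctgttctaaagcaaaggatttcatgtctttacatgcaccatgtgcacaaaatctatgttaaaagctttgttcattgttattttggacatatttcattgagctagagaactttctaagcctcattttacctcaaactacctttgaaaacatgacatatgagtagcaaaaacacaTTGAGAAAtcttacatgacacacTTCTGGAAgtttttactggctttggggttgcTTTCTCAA
Clec4e: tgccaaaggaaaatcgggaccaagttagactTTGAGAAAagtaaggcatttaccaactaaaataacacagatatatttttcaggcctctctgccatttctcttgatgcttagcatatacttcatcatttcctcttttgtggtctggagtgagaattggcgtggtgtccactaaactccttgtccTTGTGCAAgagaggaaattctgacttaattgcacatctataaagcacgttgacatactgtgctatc
Clec4d held 3 matches and Clec4e held 2.

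Hdc encodes histidine decarboxylase, the enzyme that makes histamine, known from mast cells and basophils and also from myeloid cells of the neutrophil line. The gene lies on the minus strand of chromosome 2 at 126593667 to 126619299. It was at 8.52, 3.34 and 4.0 CPM in WT1, WT2 and WT3 and at 3.70, 15.1 and 23.6 CPM in KO1, KO2 and KO3. WT2, WT3 and KO1 were nearly level. The means were 5.29 ± 2.82 CPM in WT and 14.1 ± 9.96 CPM in KO (SD, n = 3 each), with a log2 difference of 1.41 ± 0.70 (SE; edgeR adjusted p = 0.829). Since mast cells make Hdc too, their markers are of interest here: 10 of 12 passed the filter, 8 with a higher and 2 with a lower KO mean, with a median log2 difference of 0.28 and 0 called. The 12 summed to 203 to 319 CPM in WT and 234 to 341 CPM in KO, and none was at 0 in every library. KO2 and KO3 were the 2 highest libraries for 2 of the 10, Cpa3 and Ms4a2, near the 18.7% of all tested genes. The mean standardised level of the 10 markers was highest in KO3 (0.66) and KO2 (0.43) and lowest in WT3 (-0.86). Their Pearson r with the mean profile of the members over the libraries ran from -0.10 (Kit) to 0.91 (Cpa3). Cpa3 and Ms4a2 (0.83) had the highest r of the 10, while Cma1, Gata2, Mcpt4, Mcpt1 and Mcpt2 had 0.27 to 0.48. Only these 2 most alike markers are given by library. Cpa3, a mast cell carboxypeptidase, was at 10.4, 4.68 and 2.5 CPM in WT1, WT2 and WT3 and at 5.49, 10.8 and 13.5 CPM in KO1, KO2 and KO3. Ms4a2, a chain of the IgE receptor, was at 0.946, 2.27 and 0.125 CPM in WT and at 0.894, 5.55 and 6.67 CPM in KO, in the same order. The part of these cells in the Hdc values was not tested.

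Retnlg encodes resistin-like gamma, a small secreted protein of bone marrow and neutrophils. It lies on chromosome 16 at 48872621 to 48874496, plus strand, and was at 1.18, 0.535 and 0.125 CPM in WT1, WT2 and WT3 and at 0.894, 5.16 and 5.31 CPM in KO1, KO2 and KO3. KO2 and KO3 held 39 counts each, and no other library held more than 10. Without the filter its log2 difference was 2.59 ± 0.85 (SE; edgeR adjusted p = 0.784). Its relative Retnla, an alternative activation gene with 82.8% identity over 599 bases, had another order, with 14.7 CPM in WT1 and 2.51 CPM in KO2 as its extremes. Retnlb, the goblet cell member of the family, was at 3.25 CPM in WT3 and 3.19 CPM in KO1 and at 39.9 to 65.0 CPM in the other libraries.

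Compared per kilobase of exon, mean levels over the 6 libraries ran in the order S100a9 (21.7 CPM per kb), S100a8 (11.3), Lcn2 (10.9), Retnlg (3.71), Csf3r (3.48), Clec4d (3.15), Hdc (1.52), Trem1 (1.50), Clec4e (0.579) and Trem3 (0.378). None of the 9 steps between neighbours in this order was larger than the SD over the 6 libraries of the more variable gene. S100a8 alone, for instance, ran from 0.721 to 27.1 CPM per kb. Much of that SD is spread that the genes share, so it does not judge their order within a library. S100a9 was above S100a8, and Lcn2 above Retnlg, in 6 of the 6 libraries. S100a8 was above Lcn2 in 3 and Retnlg above Csf3r in 2, and the other steps held in 4 or 5.

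The spread within a genotype was as large as the difference between genotypes for many of these genes. The KO SD exceeded the WT SD for all 10, and for 6 of the 10 (S100a8, S100a9, Lcn2, Trem3, Hdc and Clec4e) the difference of the means was below the KO SD. For 0 of the 10 did every KO library lie above every WT library, which 4.55% of the 17195 tested genes did. The median log2 difference of the 7 tested members was 1.71, with 7 of 7 above 0 and 7 of 7 above 1. Over all tested genes the median was -0.0045, with 49% above 0 and 2.31% above 1.

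The order of the libraries followed Xist status more often than the genotype label. For 9 of the 10 genes, all but Lcn2, every Xist-high library was above every Y-linked library. Among the 7 tested genes this held for 6, and among all tested genes for 8.29%. The Xist-high mean was 3.18 times the Y-linked mean for Csf3r and 14 times for Clec4e, the ends of the range over the 10. That KO2 and KO3 both lay above the other 4 libraries held for 7 of the 7 tested genes and for 18.7% of all tested genes.

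Within the Xist-high set, KO2 and KO3 were both above WT1 for 10 of the 10 genes and for 7 of the 7 tested, against 40% of all tested genes. The differences there ran from 0.44 (Csf3r) to 2.13 (Clec4e) on the log2 scale, against a single WT library and so with no error. Within the Y-linked set, KO1 was above WT2 and WT3 for 4 of the 10 (Trem1, Csf3r, Clec4d and Retnlg), below both for 2 (Lcn2 and Clec4e) and between them for the other 4. Of the 7 tested genes, 3 had KO1 above both, against 36.7% of all tested genes, which is near the background. Differences in this set ran from -1.60 (Clec4e) to 1.61 (Retnlg), again with no error.

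With Xist status as a term of the edgeR fit, the log2 differences became smaller for all 7 tested genes, and 0 genes were called (0%), with an adjusted p of 0.9997 for each of the 7. They were 0.43 ± 0.74 for S100a8, 0.51 ± 0.47 for S100a9 and 0.43 ± 0.97 for Lcn2 (SE). The receptors stayed nearer to their difference without this term, with 1.34 ± 0.34 for Trem1, 0.71 ± 0.26 for Csf3r and 1.39 ± 0.40 for Clec4d, and Hdc was at 0.64 ± 0.39 (SE). At an unadjusted p under 0.05 this fit took 3 of the 7, against 1.45% of all tested genes with a higher level in KO. With 1 or 2 libraries of a genotype in each set, the parts of genotype label and Xist status in these levels cannot be fully told apart.

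**Figure D2:**
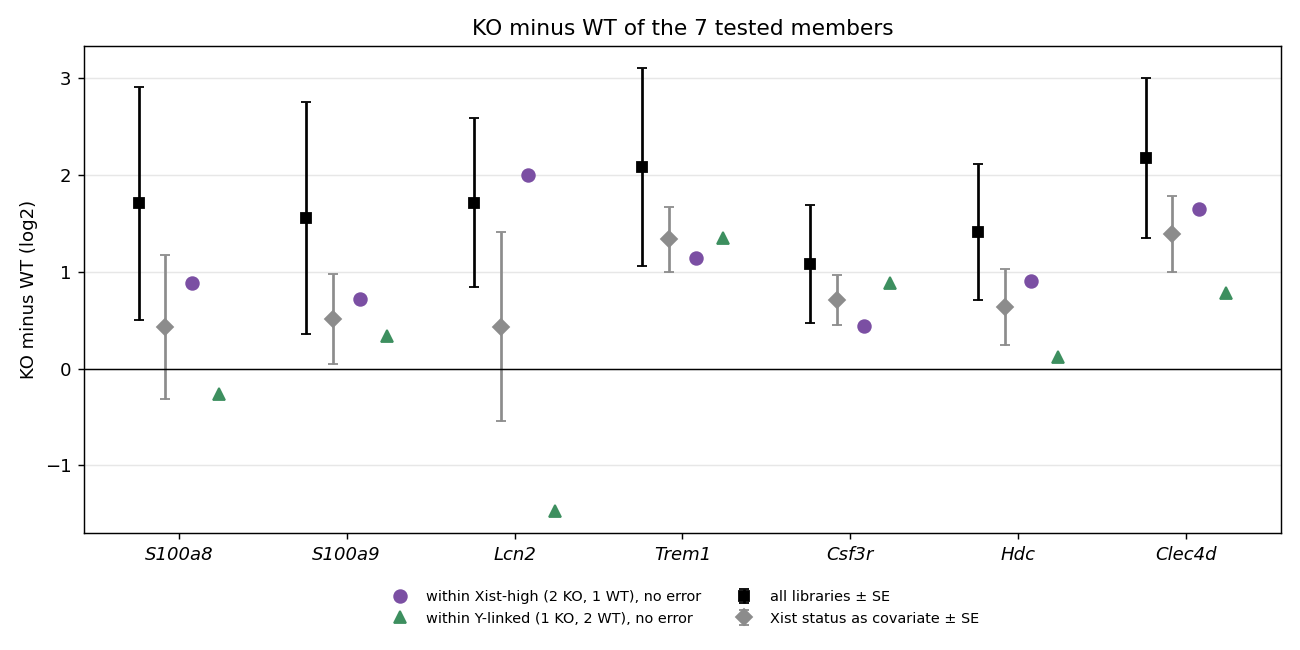
Log2 difference of labelled KO minus labelled WT for the 7 tested genes; squares are the fit over all 6 libraries and diamonds the fit with Xist status as a covariate (bars are SE), circles the difference within the Xist-high set and triangles within the Y-linked set, which have no error. The diamonds lie below the squares for every gene, and the triangle of Lcn2 lies below 0 at -1.47.

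Genes that act with the members, and markers of other cells, were taken from lists; of their 176 tested genes, 0 were called by edgeR, DESeq2 or limma-voom at an adjusted p of 0.05. At an unadjusted p under 0.05, edgeR took 7 of the 176 (Il1a, Il23a, Clec4n, Cebpa, Retn, Cidec and Lpl), which is 3.98% against 5.06% of all genes. DESeq2 took 11 (6.25% against 5.35%) and limma-voom 40 (22.7% against 26.3%), so that these shares are near the background.

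Among ligands that recruit and activate neutrophils, 8 of 15 passed the filter, 8 of the 8 had a higher KO mean, and 0 were called by edgeR. At an unadjusted edgeR p under 0.05 were 2 of the 8, against 2.62% of all tested genes with a higher level in KO. The median log2 difference of the 8 was 1.67, close to that of the members. For 7 of the 8 every Xist-high library was above every Y-linked one, against 8.29% of all tested genes. Cxcl2, a chemokine for the receptor Cxcr2, was at 6.03, 0.936 and 0.500 CPM in WT1, WT2 and WT3 and at 0.511, 23.9 and 14.2 CPM in KO1, KO2 and KO3. Il1b, the inflammasome-processed cytokine, was at 25.2, 7.89 and 4.13 CPM in the WT libraries in the same order and at 7.53, 46.8 and 41.3 CPM in the KO libraries. Il23a, a subunit of interleukin 23, was at 2.72, 0.936 and 1.13 CPM in WT and at 1.28, 8.99 and 19.9 CPM in KO. These 3, like the members, had their 2 highest values in KO2 and KO3. Csf3, which encodes G-CSF itself, stayed at or below 0.710 CPM, and Il17a, which lies upstream of it in the gut, at or below 1.59 CPM.

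Neutrophil receptors outside the members gave a more mixed picture. Of 17 listed, 13 passed the filter, 10 with a higher and 3 with a lower KO mean, 0 were called, and the median log2 difference was 0.25. Cxcr2, the chemokine receptor that brings neutrophils into tissue, was at 5.44, 0.802 and 0.125 CPM in WT1, WT2 and WT3 and at 0.511, 6.35 and 11.6 CPM in KO1, KO2 and KO3, and so had the members' order. Ly6g is the surface protein by which mouse neutrophils are sorted. It was at 57.8 to 64.0 CPM in WT and at 51.6 to 56.2 CPM in KO, so every WT library was above every KO library. The log2 difference was -0.17 ± 0.08 (SE), with an edgeR adjusted p of 0.829. The share of all genes with every WT above every KO is not given here. Ly6g counts reached 0.574 per exon base, and the highest value of any gene in a library was 0.919 to 0.973. The members stayed at or below 0.366 (S100a9) and the other 9 at or below 0.205. Whether such values compressed the range of Ly6g was not tested.

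Granule and effector genes differed widely in level. Elane was not analysed here. Mpo, Prtn3, Ctsg, Camp and Ngp, granule genes that neutrophil precursors make in the bone marrow, stayed at or below 0.766 CPM in every library. Of 13 granule genes in the files 6 passed the filter, 4 with a higher and 2 with a lower KO mean, 0 were called, and the median log2 difference was 0.14. Padi4, which modifies histones when neutrophils release their DNA, was at 9.34, 2.41 and 0.375 CPM in WT1, WT2 and WT3 and at 1.15, 44.0 and 69.9 CPM in KO1, KO2 and KO3. Mmp9, a gelatinase of late granules, was at 26.0, 11.1 and 3.88 CPM in WT and at 7.28, 58.5 and 37.0 CPM in KO. Ltf, lactoferrin, had another order, with 186 CPM in WT1 and at most 16.7 CPM elsewhere. The phagocyte oxidase genes had smaller differences: 6 of 6 had a higher KO mean with a median of 0.16 and 0 called.

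**Figure D3:**
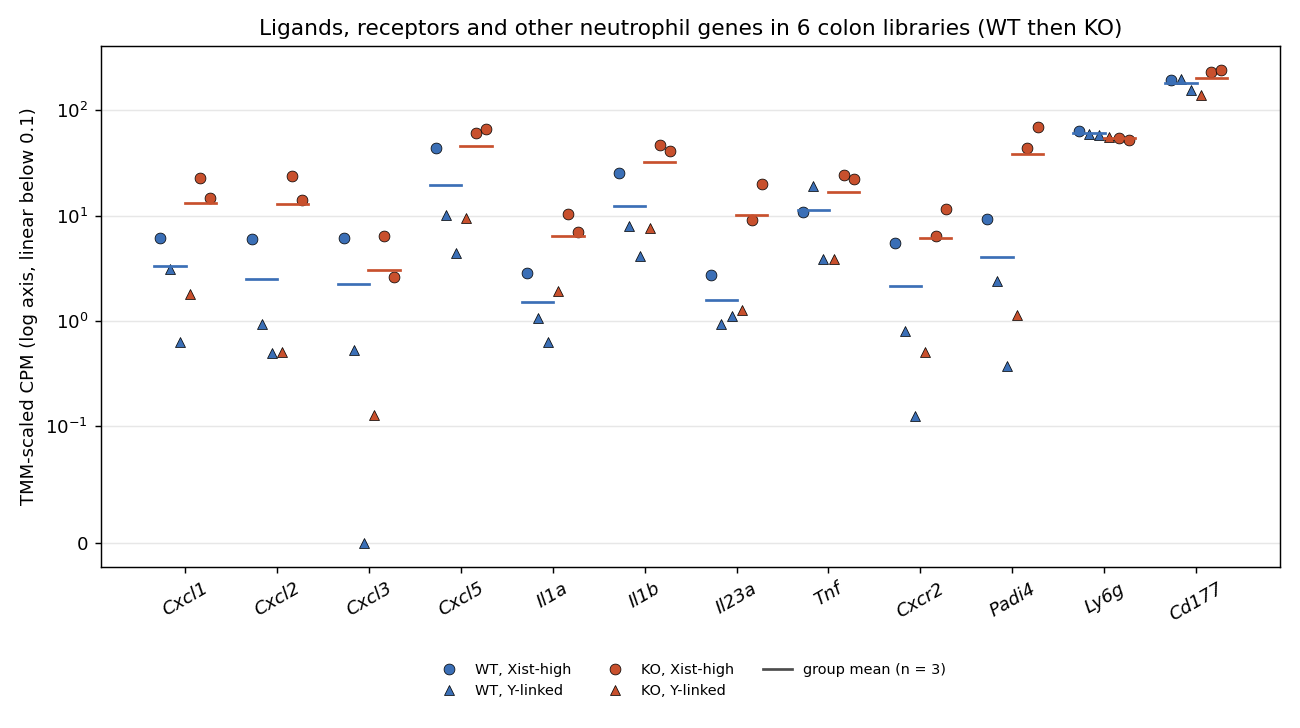
Levels of 12 ligands, receptors and other neutrophil genes in each colon library in TMM-scaled CPM, on a log axis that is linear below 0.1, with colours, shapes and lines as in the plot of the 10 genes. Cxcl2, Il1b, Cxcr2 and Padi4 repeat the order of the members, with KO2 and KO3 highest, while Ly6g stays between 51.6 and 64.0 CPM.

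Genes that sense alarmins or carry the signals of the lectin receptors mostly had smaller differences than the members. Of 20 listed, 19 passed the filter, 15 with a higher and 4 with a lower KO mean, with a median log2 difference of 0.13 and 0 called. The highest library was 1.41 times the lowest in the median of the 19, and 4.24 times for Clec7a (dectin 1), the most variable. For 6 of the 19 (Tlr4, Tlr2, Cd14, Jak2, Stat3 and Socs3) every Xist-high library was above every Y-linked one, against 8.29% of all tested genes. Tlr4, a receptor of calprotectin, was at 51.0 to 56.2 CPM in WT and at 54.9 to 66.2 CPM in KO. Tyrobp, the adaptor of the Trem receptors, was at 20.3 to 25.9 CPM in WT and at 23.7 to 25.9 CPM in KO. Clec4n (dectin 2), a lectin receptor encoded near the Clec4d and Clec4e pair, was at 18.5, 16 and 14.8 CPM in WT1, WT2 and WT3 and at 22.6, 21.4 and 22.9 CPM in KO1, KO2 and KO3. There every KO library was above every WT library, as for 4.55% of all tested genes and for 1 of the 19 here. The log2 difference was 0.44 ± 0.15 (SE), with an edgeR adjusted p of 0.829. Socs3, a feedback inhibitor of G-CSF and interleukin 6 signalling, was at 30.6 to 53.5 CPM in WT and at 40.6 to 115 CPM in KO.

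The other S100 genes varied less, with a median ratio of the highest to the lowest library of 1.25. Counts of the tested ones reached 0.0532 (S100b) to 0.537 (S100a16) per exon base. Whether the higher of these values compressed their range was not tested. Of 14 listed, 11 passed the filter, 6 with a higher and 5 with a lower KO mean, with a median log2 difference of 0.02 and 0 called. KO2 and KO3 were the 2 highest libraries for 3 of the 11 (S100a6, S100a11 and S100a16), against 18.7% of all tested genes. Every Xist-high library was above every Y-linked one for 2 (S100a14 and S100g), against 8.29%. Neutrophil transcription factors went both ways, with 4 higher and 4 lower among 8 tested, a median of 0.00 and 0 called. Gfi1, a repressor needed for neutrophil maturation that other gut cells also make, had the widest range, from 15.5 to 59.0 CPM, both in libraries labelled WT. Cebpa, a factor of early granulocyte commitment that epithelium also makes, was at 104 to 105 CPM in WT and at 83.1 to 94.5 CPM in KO. It was the 1 of the 8 with every WT above every KO. The share of all genes with that order is not given here. The log2 difference of Cebpa was -0.21 ± 0.07 (SE), with an edgeR adjusted p of 0.829. Histamine receptors and enzymes other than Hdc had a median of -0.13, with 2 higher and 3 lower among 5 tested and 0 called. Of the other alarmins, 4 of 7 were higher and 3 lower, with a median of 0.03 and 0 called. Il33, the nuclear alarmin of barrier and stromal cells, was at 42.1, 9.63 and 10.8 CPM in WT1, WT2 and WT3 and at 18.1, 52.8 and 46.8 CPM in KO1, KO2 and KO3.

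Some epithelial antimicrobial genes had the members' order of libraries. Of 11 tested, 10 had a higher and 1 a lower KO mean, with a median log2 difference of 0.69 and 0 called. For 4 of the 11 every Xist-high library was above every Y-linked one, against 8.29% of all tested genes. Reg3g, a lectin against gram-positive bacteria, was at 22.0, 5.48 and 2.13 CPM in WT1, WT2 and WT3 and at 2.43, 74.7 and 44.3 CPM in KO1, KO2 and KO3. Nos2, the inducible nitric oxide synthase, was at 25.8 to 52.7 CPM in WT and at 21.7, 138 and 86.7 CPM in KO1, KO2 and KO3. Its highest libraries were KO2 and KO3, but it was not among the 4 genes with every Xist-high library above every Y-linked one.

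The markers of other cells differed in the order of the libraries. Those of monocytes and macrophages, 12 of 12 tested with a median log2 difference of 0.09 and 0 called, summed to 467 to 661 CPM in WT and to 460 to 806 CPM in KO, with KO1 highest and none at 0. Stratified epithelium, which also makes S100a8 and S100a9, had 9 of 12 markers tested, all 9 with a lower KO mean, a median of -2.29 and 0 called. Its markers summed to 36.4 to 996 CPM in WT and to 30.8 to 116 CPM in KO. Of the 9, 6 were higher in every Xist-high than in every Y-linked library, against 8.29% of all tested genes. Krt4, a keratin of moist stratified epithelium, was at 149 CPM in WT1, at 7.54 and 8.85 CPM in KO2 and KO3 and at or below 0.669 CPM in the Y-linked libraries. Smooth muscle markers were lower in KO in mean for 8 of 8, with a median of -0.18, 0 called and sums of 1529 to 1993 CPM in WT and 943 to 1787 CPM in KO. Lymphocyte markers summed to 122 to 312 CPM in WT and to 131 to 359.5 CPM in KO, with 0 of 10 called and a median of -0.05. The part of any of these cells in the members' values was not tested.

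**Figure D4:**
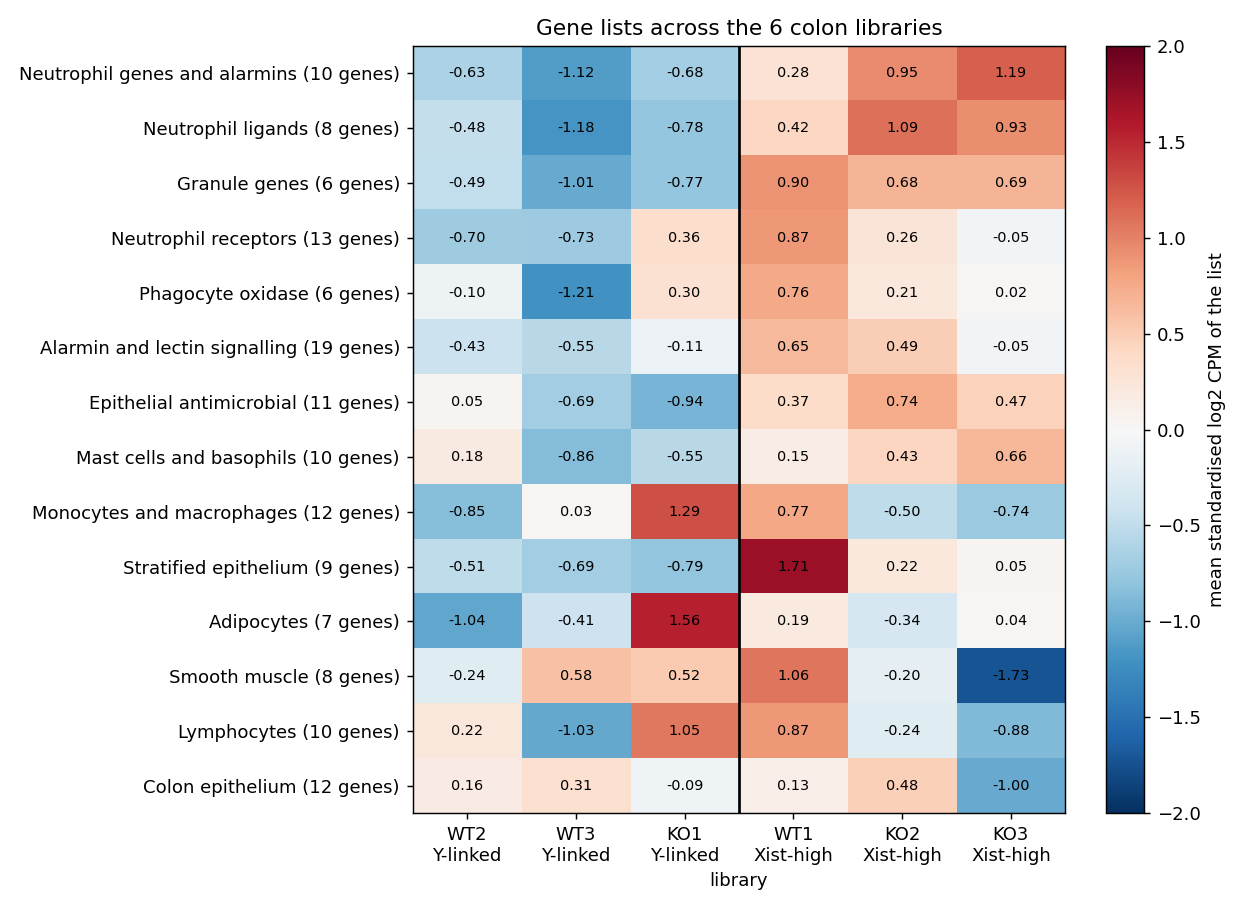
Mean standardised log2 CPM of each gene list (rows; the number of genes is given) in each colon library (columns, Y-linked at the left and Xist-high at the right of the line); red is above and blue below the mean of the 6 libraries. The 10 genes run from -1.12 in WT3 to 1.19 in KO3, the ligands follow the same order of sets, macrophage genes peak in KO1 at 1.29 and stratified epithelium peaks in WT1 at 1.71.

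Across the 6 libraries the 10 genes resembled each other closely, as a description with no test over libraries that share depth and Xist status. The median Pearson r of the 45 pairs was 0.919 (n = 6 libraries), and the lowest was 0.673 between Lcn2 and Csf3r. Against the mean of the other 9, r was lowest for Lcn2 (0.833) and Clec4e (0.881) and highest for Clec4d (0.988). Of 14243 tested genes with a mean of at least 1 CPM, those whose profile was most like the mean of the 10 were Nucb2 (r = 0.999), Spock2, Inhbb, Crem, Tnfrsf19, Sh3kbp1, Padi4 (0.992), Tmem173, Slc26a9 and Prox1 (0.991). Padi4, at rank 7, was the only neutrophil gene of the lists among them, and the next were Il1r2 (0.984) and Il1b (0.977), while Cxcr2 had 0.960. Prox1, a transcription factor of lymphatic vessels and some secretory cells, was at 71.1, 44.0 and 18.4 CPM in WT1, WT2 and WT3 and at 36.9, 195 and 349.5 CPM in KO1, KO2 and KO3. Spock2, a matrix proteoglycan, was at 66.9 to 194 CPM in WT and at 97.9, 400.4 and 539 CPM in KO1, KO2 and KO3. All 10 of these genes were also higher in every Xist-high than in every Y-linked library.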

How the data were processed

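Per the file headers, the colon tables deposited by the authors give a read count for each Ensembl gene, as whole numbers and not normalized. The submitters' processing notes name STAR, TopHat2, RSEM, HTSeq and DESeq2 with mm10 and GRCm38; their roles, filters and strand setting are not given in the sources used here. IDs were matched to GENCODE vM21 (99.8% found). Groups came from the sample titles.

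The test was edgeR 4.0.16's robust quasi-likelihood F test (R 4.3.3) after filterByExpr and TMM scaling, with Benjamini-Hochberg adjustment over 17195 genes. SE is the log2 difference divided by the square root of F. Log2 CPM had 0.5 counts added. DESeq2 1.42.0 and limma 3.58.1 (voom), other scalings and filters, the replicate block, Xist status as a covariate and leaving out each library were alternatives. The edgeR test was also run on simulated data. Errors cover the spread between these samples only.

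The members, the 21 lists and the alternatives were chosen with earlier results of these data known. The named genes are the members, from each list up to 4 genes with the smallest p or a role beside a member, S1pr4, Xist, Ddx3y and the 10 genes most alike over the libraries. Krt4, Spock2 and Prox1 and other genes given with values were picked from these sets with values seen. RefSeq promoter windows are on GRCm38.p6.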

Additional observations from a re-analysis of the deposited data

Results flagged for a closer look

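The difference between labelled KO and labelled WT went opposite ways in the Xist-high and the Y-linked libraries for Lcn2 and Clec4e. For Lcn2 it was 2.0 (log2) in the Xist-high set, where KO2 and KO3 were both above WT1, and -1.47 in the Y-linked set, where KO1 was below WT2 and WT3. For Clec4e the values were 2.13 and -1.60, the latter with 1 count in KO1 against 3 and 5 in WT2 and WT3. Each set holds a single library of 1 genotype, and the difference between the sets was not tested.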

How the results depend on the processing

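The 0 calls among all genes held under every alternative run except DESeq2, which called 18 genes, 7 higher and 11 lower in KO, none of them a member; the cause was not tested. None of the 7 tested members changed direction or passed an adjusted p of 0.05 under any alternative in which it was tested; the filter of a mean of 50 counts left out Trem1 and Clec4d. The members' median log2 difference, 1.71 over 7, was 1.91 with no filter (10 members), 2.88 with limma-voom, 0.64 with Xist status as a covariate and 1.90 with the replicate block. Leaving out each library gave 1.32 (without KO2, 8 members tested) to 3.0 (without WT1, 9 tested). Without WT1, 5 of 9 tested members had an unadjusted edgeR p under 0.05, as had 3.56% of all genes with a higher level in KO. These 9 include Clec4e and Retnlg, which reached the low-count limit only in KO2 and KO3. They so entered the test through the group where they are high, here and without KO1, and add no support. Without KO1, 7 of 9 members had an unadjusted edgeR p under 0.05, as had 8.9% of all genes with a higher level in KO. The lowest adjusted edgeR p among the members was 0.0781 in that fit. Leaving out KO1 leaves only Xist-high libraries labelled KO, and leaving out WT1 leaves only Y-linked libraries labelled WT. Genotype label and Xist status are thus harder to tell apart in these fits than over all libraries. Depth limits Trem3 (at most 9 counts), Clec4e and Retnlg, which were tested only without the filter or with a library left out. The replicate block changed no call; deviations of same-numbered libraries had r of -0.06, 0.18 and -0.22, and not every library was most like its own number, so the numbers were not taken as pairs.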

Other observations

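Ppbp, a platelet chemokine precursor that also draws neutrophils, was at 56.2 CPM in WT1 and at or below 1.98 CPM in the other colon libraries, and so had a pattern of its own among the ligands. Adipocyte markers, 7 of 8 tested and all 7 higher in KO (49% of all tested genes), had a median log2 difference of 1.14 with 0 called by edgeR. At an unadjusted edgeR p under 0.05 were 3 of the 7, against 2.62% of all tested genes with a higher level in KO. For 2 of the 7 every KO library was above every WT library, against 4.55% of all tested genes. The summed level of these markers was 90.4 to 111 CPM in WT and 110.4 to 215 CPM in KO, highest in KO1. Retn, the adipocyte relative of Retnlg, was at 2.48, 0.535 and 1.25 CPM in WT1, WT2 and WT3 and at 6.51, 2.12 and 3.95 CPM in KO1, KO2 and KO3. Erythroid genes, 5 of 6 tested, had a median of -0.34 with 0 called, and eosinophil markers had 2 tested, both with a higher KO mean and 0 called. Receptors encoded near the Trem and Clec4 members, 6 of 9 tested, had 4 higher and 2 lower with a median of 0.17 and 0 called.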
